A study of Homo sapiens with 6 samples.

Results

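The human tRNA gene cluster on the short arm of chromosome 6 was described in small RNA sequencing of HEK293T cells, a human embryonic kidney cell line, after knockdown of the La protein. Its members were taken as every counting window of class tRNA on chromosome 6 that starts from 26 Mb up to 28.2 Mb (GRCh38), a rule that used position and class and no measured value. These were 103 of the 53603 windows in the table and 103 of its 534 tRNA windows. All cells had been transfected with 150 nM siRNA through Lipofectamine RNAiMAX and harvested after 48 h, with a control siRNA in 3 libraries and an siRNA against La, the protein encoded by SSB, in the other 3. The design text calls the 3 libraries of an arm biological replicates, and the cells of both arms were the same line. A difference between the arms is therefore one between transient siRNA transfections of cultured cells and not between clones. The RNA came from mirVana PARIS preparations, its ends were dephosphorylated and rephosphorylated with Antarctic phosphatase and T4 polynucleotide kinase, and the libraries were made with an NEBNext small RNA kit.

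tRNA genes are transcribed by RNA polymerase III from a promoter inside the gene, made of an A box and a B box, and transcription stops at a run of T just after the gene. The new transcript therefore ends in a short run of U, to which La binds before the 5′ leader and 3′ trailer are cut away and, in some families, an intron is spliced out. The cluster on chromosome 6 lies among histone genes and holds genes for most tRNA families. A tRNA family is named by its amino acid and anticodon, and genes of an isodecoder share the whole mature sequence, so a read of the mature RNA cannot be given to a particular copy by its sequence.

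The windows are 400 bp long and reach 150 bp upstream and 250 bp downstream from a start site, so a window set at the start of a tRNA gene covers the gene and the sequence on both sides of it. The members span 1617 kb, from position 26286376 to 27903128, in 7 blocks set apart by gaps over 60000 bp. RefSeq (GRCh38.p14) placed a tRNA gene in 87 of the 103 windows, under 83 distinct symbols of 17 families counted by amino acid, with the initiator methionine tRNA apart from the elongator one. No RefSeq tRNA gene lay in the other 16 windows, of which 5 had enough reads to be tested. Reads were absent from 7 windows in all 6 libraries. After the filter on low counts 89 members were tested, and the 14 left out had at most 10 counts in any library. Some windows overlap and can count the same reads, and merging overlapping windows leaves 97 loci, of which 85 were tested.

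The sequence tables at hand hold 2 member genes in full, both of the isoleucine family. They are printed because they show the parts that matter for La: the gene with its internal promoter, and the T run at which the transcript would end. Capitals mark the B box motif GTTCNANNC and the first run of 4 T after the gene, and both genes are on the plus strand (RefSeq, GRCh38.p14). TRI-AAT8-1 is printed from chr6:27668583-27668703 and TRI-TAT2-2 from chr6:27020346-27020446.
TRI-AAT8-1: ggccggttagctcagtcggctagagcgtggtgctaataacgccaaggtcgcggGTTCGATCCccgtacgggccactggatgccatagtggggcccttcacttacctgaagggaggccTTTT
TRI-TAT2-2: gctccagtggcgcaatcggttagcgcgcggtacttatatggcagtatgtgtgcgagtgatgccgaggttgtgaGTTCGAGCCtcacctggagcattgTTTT
The TRI-AAT8-1 gene has 74 bases and 43 bases lie between the gene and its T run. In TRI-TAT2-2, a 94-base gene that includes an intron, only 3 bases separate the gene from the T run. The B box motif was found in 7.48% and a TTTT run in 71.4% of 35116 RefSeq promoter sequences of 300 bases, with both strands searched, so a T run alone is common and the matches are a description of these letters.

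Mature sequences of 2 further member families could be read from copies outside the cluster, TRR-ACG2-1 (chr3:45688999-45689071, minus strand) and TRH-GTG1-3 (chr1:148281365-148281436, plus strand). They are shown because TRR-ACG2 has 3 member genes and TRH-GTG1 has 1, and they let the sequence shared by an isodecoder be seen. Capitals again mark the B box motif.
TRR-ACG2-1: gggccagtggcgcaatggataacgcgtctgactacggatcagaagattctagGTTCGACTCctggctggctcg
TRH-GTG1-3: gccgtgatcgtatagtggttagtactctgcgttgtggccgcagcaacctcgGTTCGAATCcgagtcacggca

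Total counts ranged from 3066299 to 4105806 per library. The SSB window at the start site had 4, 3 and 3 counts in the controls and 1, 0 and 0 after La knockdown (exact permutation test, two-sided p = 0.1, the smallest that 3 against 3 libraries allow). A second SSB window, next to it, had 0, 0 and 1 counts in the controls and 0, 2 and 0 after La knockdown (exact permutation test, two-sided p = 1.0). Both count small RNA at the promoter and do not measure SSB mRNA. rRNA windows took 39.4% ± 4.89 of the counts in the controls and 47.3% ± 6.98 after La knockdown (SD, n = 3), with overlap between the arms, and the part of this share in the results was not tested.

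Against this background, 8 of the 89 tested members fell after La knockdown and 0 rose (quasi-likelihood test in edgeR, p adjusted by Benjamini-Hochberg over all windows tested, threshold 0.05). The share of 8.99% that fell compares with 4.79% of all 1064 tested windows, and the share that rose over all windows was 0.658%. Among the 357 tested tRNA windows elsewhere in the genome 23 fell, a share of 6.44%. The 8 windows were those of 3 lysine genes (TRK-TTT9-1, TRK-TTT6-1, TRK-TTT4-1), 2 arginine genes (TRR-ACG1-1, TRR-TCG4-1), the tyrosine gene TRY-GTA8-1, the serine gene TRS-CGA3-1, and a window without a RefSeq gene, tRNA_51472. At an unadjusted p under 0.05, 29 members were lower and 1 was higher, where 14.2% and 9.68% of all tested windows were. All 8 calls were lost without La knockdown replicate 1, and 5, 3, 7 and 2 of the 8 were called without control replicate 1, 2 or 3 or La knockdown replicate 2. Upper quartile scaling called 3.38% of all windows lower and left 4 of the 8, without TRK-TTT4-1, TRK-TTT6-1, TRY-GTA8-1 and tRNA_51472. DESeq2 called 13 members lower (7.14% of all windows), and library size alone called 11 (6.48%). A fit with no filter called 18 members (0.476% of 21830 windows), and 17 were called without La knockdown replicate 3 (8.60% of 1139 windows).

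The median log2 fold change over the 89 tested members was -0.49. It was -0.41 over the other tRNA windows, -0.05 over all tested windows and 0.28 over windows of other classes. A log2 fold change under 0 was found in 69 members (77.5%), in 84.0% of the other tRNA windows and in 53.2% of all tested windows. The scaled counts of the arms did not overlap in 40 members, of which 37 were lower and 3 higher after La knockdown. Over all tested windows these directions took 17.9% and 14.1%. The difference between the cluster and the tRNA genes elsewhere was not tested, and the values of both sets lie close together. The plot of all tested windows sets the members among them.

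**Figure D1:**
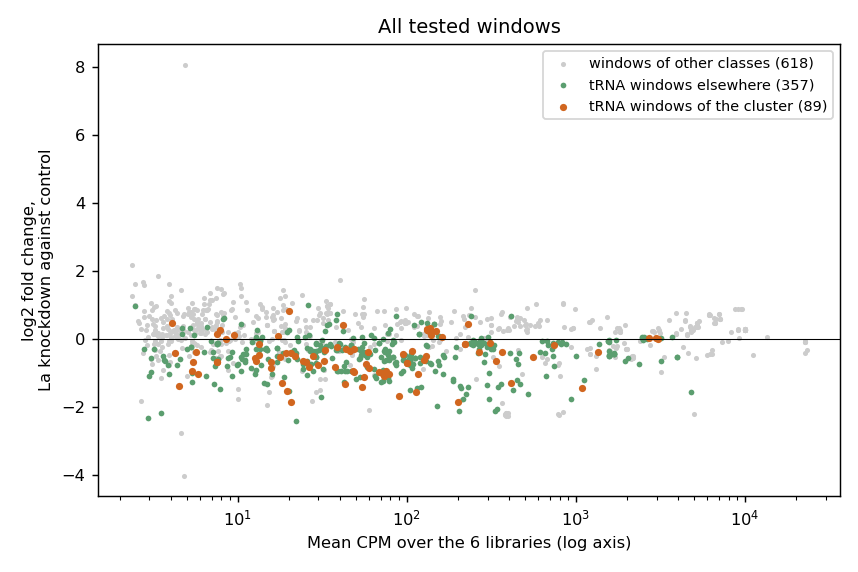
Each point is a tested window, with its mean CPM (reads scaled to library size with TMM factors) over the 6 libraries on a log axis and its log2 fold change of La knockdown against control on the vertical axis. The 89 windows of the cluster lie in the same band as the 357 tRNA windows elsewhere, with medians of -0.49 and -0.41, and most lie under 0.

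The share of the library that the members took depended on the total it was set against. The members held 2.011%, 2.078% and 2.274% of all counts in the controls and 1.619%, 1.549% and 1.851% after La knockdown, a difference of -0.448 percentage points between means of 2.12% ± 0.137 and 1.67% ± 0.158 (SD, n = 3). The arms did not overlap. With rRNA windows left out of the total the means were 3.53% ± 0.504 and 3.19% ± 0.195, and the arms overlapped. Within the tRNA counts, the cluster held 13.6% ± 0.639 in the controls and 14.6% ± 0.619 after La knockdown, again with overlap. The windows of the 3 aspartate genes alone held 46.8% of the members' CPM. Without these windows the members' share of all counts was 1.23% ± 0.0131 against 0.827% ± 0.166, with every La knockdown library lower.

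Lysine tRNA with the anticodon TTT reads the AAA and AAG codons, and each of the 3 member genes of this family fell. TRK-TTT9-1 (gene at 27576067 to 27576139) had 1332, 1003 and 1121 counts in the controls and 258, 210 and 343 after La knockdown. Every La knockdown library lay far under every control library, and the log2 fold change was -1.83 (SE 0.27, adjusted p = 0.0103 by edgeR). TRK-TTT6-1 (27334990 to 27335062) had 461, 863 and 510 counts against 114, 183 and 249. Control replicate 2 stood above the other control libraries here, the arms did not overlap, and the log2 fold change was -1.55 (SE 0.36, adjusted p = 0.0353 by edgeR). TRK-TTT4-1 (27591814 to 27591886) had 573, 542 and 608 counts against 193, 212 and 306, with a log2 fold change of -1.03 (SE 0.25, adjusted p = 0.0390 by edgeR).

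The summed level of the 3 TTT genes was 637 ± 67.9 CPM in the controls and 221 ± 54.8 CPM after La knockdown (SD, n = 3). The cluster's only gene for the other lysine anticodon, TRK-CTT2-4, had 178, 124 and 103 counts against 69, 70 and 134, a log2 fold change of -0.33 (SE 0.34, adjusted p = 0.529 by edgeR). Its arms overlapped through La knockdown replicate 3. Outside the cluster 4 of 9 tested TTT windows fell, with a median of -1.21, and 0 of 8 CTT windows did, with a median of -0.39. The difference between the anticodons was not tested.

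**Figure D2:**
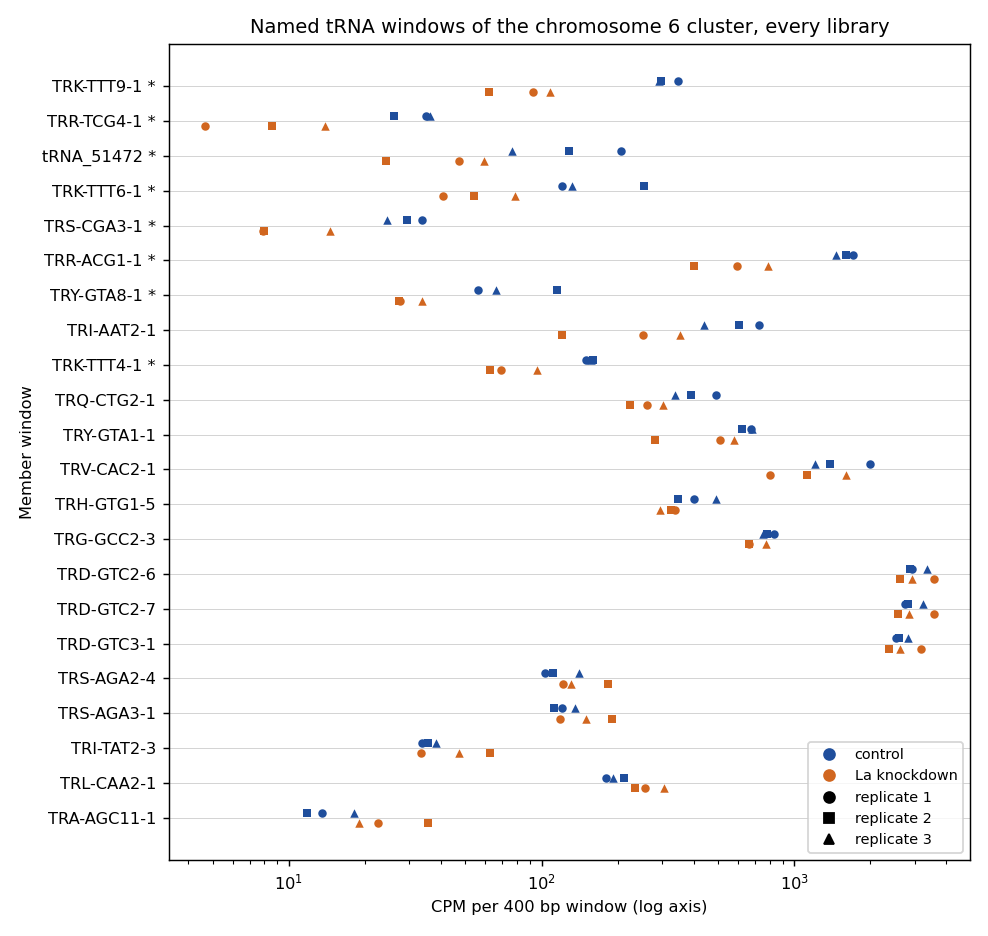
Scaled counts (CPM, log axis) of the named member windows in each of the 6 libraries, with control libraries and La knockdown libraries in different colours. The 8 windows that fell show no overlap between the arms, but they were picked by a test of the difference between the arms. Over all tested windows, 17.9% had no overlap with La knockdown lower. Separation is not limited to called windows. The uncalled isoleucine AAT, glutamine, histidine and most abundant tyrosine windows lie lower without overlap, and the leucine CAA and alanine windows lie higher without overlap. The aspartate and serine AGA genes overlap.

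Arginine tRNA genes of the cluster read CGN codons, with the anticodons ACG and TCG. TRR-ACG1-1 (26328140 to 26328212), the most abundant member that fell, had 6524, 5447 and 5663 counts in the controls and 1650, 1367 and 2492 after La knockdown. The arms were well apart, at 1594 ± 118 and 593 ± 191 CPM (SD, n = 3), and the log2 fold change was -1.43 (SE 0.27, adjusted p = 0.0156 by edgeR). TRR-TCG4-1 (26299677 to 26299749), much less abundant, had 134, 88 and 139 counts against 13, 29 and 44. It had a log2 fold change of -1.83 (SE 0.39, adjusted p = 0.0247 by edgeR), and La knockdown replicate 1 was the lowest library. The other 5 arginine windows did not pass the test, with log2 fold changes from -1.08 for TRR-ACG2-3 to -0.28 for TRR-TCG2-1, and 1 arginine window lay over 0 under upper quartile scaling. Summed arginine CPM was 2050 ± 178 in the controls and 857 ± 263 after La knockdown, without overlap.

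Copies of the TRR-ACG1 isodecoder were read at very different levels although their mature sequence is the same. The mean over 6 libraries was 1093 CPM in the TRR-ACG1-1 window and 15.7 CPM in the TRR-ACG1-2 window, a ratio of 69.7 between windows of equal length. TRR-ACG1-2 had 99, 66 and 58 counts against 24, 34 and 48, a log2 fold change of -0.84 (SE 0.35, adjusted p = 0.178 by edgeR). The copy outside the cluster, TRR-ACG1-3, had 39.5 CPM and a log2 fold change of -0.10. The difference among these copies was not tested. How reads with several positions were assigned is not given in the sources used here, and such reads could have been placed unequally among copies. For TRR-ACG2, whose mature sequence is printed above, the member genes had log2 fold changes of -0.61, -1.08 and -0.94 and the copy on chromosome 3 had -0.69.

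Tyrosine tRNA genes carry an intron, which is removed by the tRNA splicing endonuclease after transcription. TRY-GTA8-1 (26575570 to 26575659) had 215, 388 and 255 counts in the controls and 77, 93 and 107 after La knockdown. The arms did not overlap, and the log2 fold change was -1.41 (SE 0.32, adjusted p = 0.0304 by edgeR). TRY-GTA1-1 (26568858 to 26568948), the most abundant tyrosine member, had 2575, 2094 and 2620 counts against 1414, 957 and 1843. All La knockdown libraries were lower here too, but replicate 3 lay close to the control range, and the log2 fold change was -0.52 (SE 0.29, adjusted p = 0.262 by edgeR). TRY-GTA6-1 and TRY-GTA3-1 had log2 fold changes of -0.96 and -0.84 with edgeR adjusted p = 0.144 and 0.178. Outside the cluster 3 of 7 tested tyrosine windows fell, with a median of -0.98.

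Introns are found in isoleucine TAT and leucine CAA genes as well, and members with an intron had values on both sides of 0. The 8 windows of these 3 families had a median log2 fold change of -0.45 with 1 that fell, and the 76 tested windows of named genes in other families had -0.44 with 6 that fell. The leucine gene TRL-CAA2-1 (27605638 to 27605745) had 690, 717 and 739 counts in the controls and 714, 796 and 973 after La knockdown. Scaled to CPM the arms did not overlap, at 195 ± 16.2 and 266 ± 37.0 (SD, n = 3), with the La knockdown libraries higher, and the log2 fold change of 0.45 did not pass the test (SE 0.23, adjusted p = 0.245 by edgeR). The other leucine CAA gene, TRL-CAA3-1, had 270, 209 and 264 counts against 143, 162 and 174. It had a log2 fold change of -0.38 (SE 0.23, adjusted p = 0.295 by edgeR), opposite in sign to TRL-CAA2-1, and its arms did not overlap either.

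Serine was the largest family, with 15 tested windows under 4 anticodons. TRS-CGA3-1 (27672450 to 27672531), with the CGA anticodon, had 129, 99 and 94 counts in the controls and 22, 27 and 46 after La knockdown. Its arms were far apart and its log2 fold change was -1.52 (SE 0.34, adjusted p = 0.0304 by edgeR). The second CGA gene, TRS-CGA2-1, had 64, 57 and 52 counts against 25, 18 and 50, a log2 fold change of -0.65 (SE 0.40, adjusted p = 0.301 by edgeR). The 3 GCT windows, of which 2 overlap and have identical counts, had log2 fold changes between -0.69 and -0.36, and none passed the test.

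In the 7 AGA and 3 TGA serine windows the log2 fold change lay between 0.07 and 0.32, and none passed the test. All 10 kept a value over 0 under RLE, library size, upper quartile and DESeq2 scaling, and 6 had a value under 0 when no filter on low counts was applied. TRS-AGA3-1 (27532208 to 27532289), the highest of them, had 460, 379 and 523 counts in the controls and 331, 646 and 474 after La knockdown, a log2 fold change of 0.32 (SE 0.25, adjusted p = 0.406 by edgeR). By CPM the arms overlapped. La knockdown replicate 2 was the highest of all 6 libraries, by CPM, in each of the 10 windows, and replicate 1 was the lowest La knockdown library in each. The 10 windows may not be separate observations. Of them 4 are copies of the TRS-AGA2 isodecoder, and how reads with several positions were assigned is not given. Summed over the 10 windows, the level was 1290 ± 97.8 CPM in the controls and 1500 ± 339 CPM after La knockdown, with overlap. The windows of the TRS-AGA2 isodecoder had 132 to 162 CPM inside the cluster and 132 to 135 CPM outside it.

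**Figure D3:**
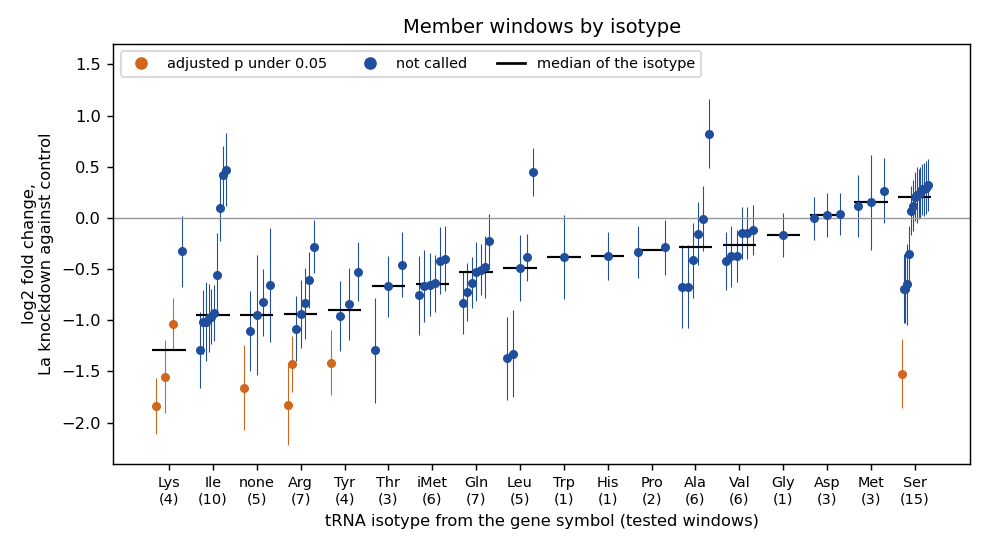
Log2 fold change of each tested member with its standard error, grouped by tRNA family and ordered by the family median (black bars), with "none" for windows without a RefSeq gene. Lysine lies lowest with a median of -1.29, and serine highest with 0.21, where 10 AGA and TGA windows lie over 0 and 5 windows of other anticodons lie under 0 (with no filter on low counts 6 of the 10 also lie under 0).

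Most isoleucine genes with the AAT anticodon had values under 0, and none passed the test as fitted here. Of 8 tested windows 7 had a log2 fold change under 0, the median was -0.97, and 6 had La knockdown libraries all lower than the control libraries. Over all tested windows these shares were 53.2% and 17.9%. The 8 windows include both windows of TRI-AAT8-1, which overlap and can count the same reads. TRI-AAT2-1 (27688188 to 27688261), the most abundant, had 2788, 2041 and 1693 counts in the controls and 703, 410 and 1118 after La knockdown. The arms did not overlap, but the spread within each arm was wide, and the log2 fold change of -1.29 missed the threshold (SE 0.37, adjusted p = 0.0811 by edgeR). It passed with library size alone (adjusted p = 0.0384 by edgeR), with no filter (8.39e-05) and without La knockdown replicate 3 (0.0299), and by DESeq2 (0.0181). Summed over the AAT genes, the level was 850 ± 131 CPM in the controls and 379 ± 138 CPM after La knockdown. The exception in sign was TRI-AAT3-1, with 12, 11 and 15 counts against 11, 20 and 14 and a log2 fold change of 0.47 (SE 0.36, adjusted p = 0.393 by edgeR).

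TRI-AAT8-1, whose sequence is printed above, had 304, 336 and 524 counts in the controls and 95, 188 and 209 after La knockdown. The arms did not overlap, and the log2 fold change of -1.02 did not pass the test (SE 0.31, adjusted p = 0.0963 by edgeR). A second member window holds only the last 14 bases of this gene and the sequence that follows, with the T run inside the 190 bp that the windows share. This second window had 247, 313 and 486 counts against 86, 175 and 193, from 81.2% to 93.2% of the counts of the first window in each library. The counts of both windows were thus close in every library. Overlapping windows can count the same reads, so this does not show whether the reads lie in the gene or past it.

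The isoleucine TAT genes carry introns, and both had values over 0, 1 of them under 0 when no filter was applied. TRI-TAT2-2, the second gene printed above, had 61, 41 and 86 counts against 42, 60 and 67, and its arms overlapped (log2 fold change 0.10, SE 0.32, adjusted p = 0.856 by edgeR). TRI-TAT2-3 (27631421 to 27631514) had 129, 120 and 147 counts against 93, 212 and 150, with La knockdown replicate 2 standing apart on the high side. Its log2 fold change was 0.42 (SE 0.29, adjusted p = 0.352 by edgeR), and 0.16 without that library. A copy of this isodecoder outside the cluster, TRI-TAT2-1, had 69, 20 and 14 counts in the controls and 11, 6 and 40 after La knockdown. Its log2 fold change was -0.59 (SE 0.71, adjusted p = 0.579 by edgeR), and the difference between the copies was not tested.

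Aspartate windows held the most reads of all members by far, and their arms overlapped. TRD-GTC2-6 (27479674 to 27479745) had 11198, 9688 and 12953 counts in the controls and 9980, 8881 and 9275 after La knockdown. Scaled to CPM, the means were 3048 ± 269 and 3039 ± 491 (SD, n = 3), a log2 fold change of -0.0045 (SE 0.21, adjusted p = 0.988 by edgeR). TRD-GTC2-7 and TRD-GTC3-1 had log2 fold changes of 0.03 (SE 0.21) and 0.04 (SE 0.21), and the sign of all 3 aspartate windows depended on the scaling, with a median of -0.06 under library size alone, 0.35 under upper quartile scaling and -0.22 with no filter on low counts. The 9 copies of TRD-GTC2 elsewhere had log2 fold changes from -0.02 to 0.07. Apart from a window of 31.7 CPM, their windows held from 2468 to 3198 CPM, and those inside the cluster held 2970 and 3040 CPM. How reads with several positions were assigned is not given. These windows can share reads and may not be separate observations. Aspartate made up 41.8% ± 3.91 of the member counts in the controls and 50.8% ± 6.48 after La knockdown, with overlap.

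Other abundant members held middle values. The valine gene TRV-CAC2-1 (27280270 to 27280342) had 7638, 4689 and 4675 counts in the controls and 2235, 3820 and 5115 after La knockdown. La knockdown replicate 3 exceeded 2 of the control libraries in counts, and the log2 fold change was -0.38 (SE 0.30, adjusted p = 0.406 by edgeR). It was -0.14 without control replicate 1, -0.18 without La knockdown replicate 1, -0.74 without La knockdown replicate 3, -0.05 under upper quartile scaling and -0.62 with no filter. TRG-GCC2-3, a glycine gene, had 3190, 2629 and 2902 counts against 1853, 2255 and 2456, a log2 fold change of -0.17 (SE 0.21, adjusted p = 0.607 by edgeR). In TRH-GTG1-5, the histidine gene whose mature sequence is printed above from another copy, 1542, 1172 and 1884 counts stood against 944, 1106 and 935. Its arms did not overlap by CPM, with a log2 fold change of -0.37 (SE 0.23, adjusted p = 0.313 by edgeR), and the 7 tested copies elsewhere had values from -0.28 to -0.05.

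Glutamine and initiator methionine genes lay under 0 together without a call. In the 7 glutamine windows the log2 fold change lay between -0.83 and -0.23, with 1 over 0 under upper quartile scaling. TRQ-CTG2-1 (27547752 to 27547823) had 1883, 1325 and 1304 counts against 730, 759 and 961. Its arms did not overlap, with a log2 fold change of -0.63 (SE 0.25, adjusted p = 0.157 by edgeR). The initiator tRNA starts every new protein chain, and its 6 member genes are all of the isodecoder TRX-CAT1. They had values from -0.76 to -0.40, with the La knockdown libraries all lower in 4, where 17.9% of all tested windows were. The 6 windows can share reads and may not be separate observations. Summed initiator CPM was 171 ± 21.5 in the controls and 113 ± 32.5 after La knockdown, without overlap. The 3 elongator methionine windows, of the isodecoder TRM-CAT4, had values from 0.12 to 0.27 and overlapping arms, and 2 of them had a value under 0 when no filter was applied. The difference between the initiator and the elongator genes was not tested.

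Among less abundant members the values spread in both directions. TRA-AGC11-1, an alanine gene (26571864 to 26571936), had 52, 40 and 70 counts in the controls and 63, 121 and 60 after La knockdown, a log2 fold change of 0.82 (SE 0.34, adjusted p = 0.174 by edgeR). It was the highest value among the members, its arms did not overlap by CPM, and La knockdown replicate 2 was the highest library. Of the leucine TAA genes, TRL-TAA4-1 had 333, 163 and 195 counts against 64, 40 and 125 with a log2 fold change of -1.33 (SE 0.42, adjusted p = 0.103 by edgeR). TRL-TAA2-1 had 21, 27 and 23 counts against 8, 5 and 10 with a log2 fold change of -1.37 (SE 0.40, adjusted p = 0.0833 by edgeR). Threonine gave 3 tested windows with values from -1.29 to -0.46, proline 2 from -0.33 to -0.28, and valine 6 from -0.42 to -0.12, and no window of these families passed the test. Under upper quartile scaling 3 valine windows and 1 proline window lay over 0.

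Windows without a RefSeq tRNA gene included 1 that fell. tRNA_51472 (chromosome 6, 27293742 to 27294141) had 790, 435 and 295 counts in the controls and 131, 82 and 188 after La knockdown. The control libraries spread widely, at 137 ± 65.3 CPM against 43.5 ± 17.8 CPM (SD, n = 3), and the log2 fold change was -1.66 (SE 0.42, adjusted p = 0.0447 by edgeR). The other 4 tested windows of this kind had values from -1.11 to -0.66 and did not pass. Of the 11 that were not tested, 7 had no read.

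The La knockdown libraries differed in how far the members lay under the controls. The median over the tested members of the log2 ratio to the control mean was -0.57, -0.82 and -0.20 in La knockdown replicates 1 to 3. In the other tRNA windows it was -0.51, -0.67 and -0.17, and over all tested windows it stayed between -0.12 and -0.02. Replicate 3 had the highest level of the La knockdown libraries in all 8 members that fell. Tyrosine spread most among the families shown, at -1.06, -1.58 and -0.29, while lysine lay low in each library, at -1.46, -1.49 and -0.90. Valine had -0.70 in replicate 1 and -0.08 and -0.02 in the others.

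**Figure D4:**
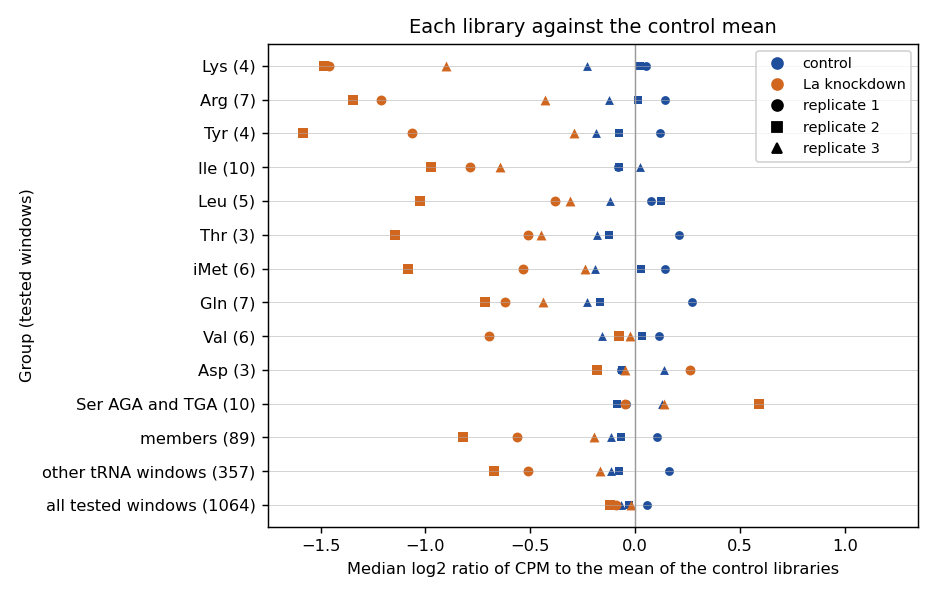
Median log2 ratio of CPM to the control mean for each library, by tRNA family, with the members, the other tRNA windows and all tested windows in the lowest rows. La knockdown replicate 3 (triangles) lies nearest to the controls for the members, at -0.20, against -0.57 and -0.82 in replicates 1 and 2.

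By position, the 8 members that fell lay in 4 of the 7 blocks, and the block medians ran from -0.68 to -0.37 in the 6 blocks with at least 2 tested windows. The first block, from 26286376 to 26331665, held 2 that fell among 12 tested, and the sixth, from 27473007 to 27796082, held 3 among 33. Within the sixth block the lysine gene TRK-TTT9-1, at -1.83, was followed, as the next member window, by the aspartate gene TRD-GTC3-1, at 0.04. By strand, taken from how the windows lie over the genes, the 44 tested plus-strand windows had a median of -0.42 and the 37 minus-strand windows had -0.46.

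**Figure D5:**
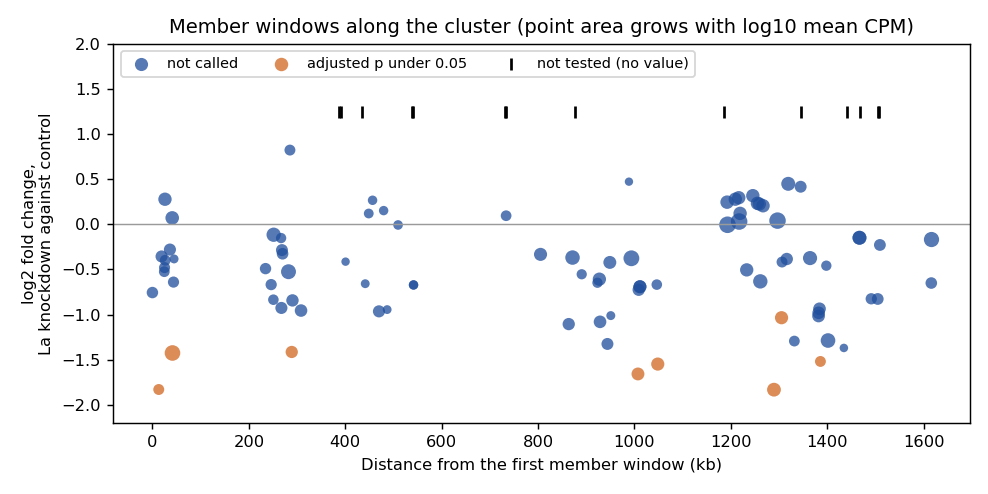
Log2 fold change of each tested member against its distance in kb from the first member window, with point area growing with mean CPM and black ticks for untested members. The 8 members that fell are spread over the cluster, and only some of them lie beside members with values near or over 0.

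Members were also sorted by how many named genes share their isodecoder, a count that does not use the reads. Among members whose isodecoder has a single named gene, 6 of 43 tested fell, with a median of -0.65. Among members with several named copies 1 of 40 fell, with a median of -0.39. tRNA windows outside the cluster had medians of -0.59 over 121 and -0.37 over 173 windows in these classes, and 10 and 7 fell. Over all 1064 tested windows 4.79% fell. Families are unequally spread over the classes and the difference was not tested.

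The authors' deposited table has 12 members lower with an adjusted p under 0.05 and 0 higher, where 0.149% of all 53603 windows in that table were lower and 7.52% of the windows tested here. These 12 include all 8 of the calls above, and the other 4 were TRL-TAA4-1, TRT-CGT5-1, TRI-AAT8-1 and TRI-AAT2-1. The log2 fold changes of the tested members in the authors' deposited table were lower than those fitted here by a median of 0.252.

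Other RNA polymerase III genes, from a list of small RNA symbols, differed among themselves. Of 35 tested windows 14 fell and 0 rose, where 4.79% and 0.658% of all 1064 tested windows did. Those that fell were 12 of 14 snAR windows and 2 of 3 vault RNA windows, while 0 of the other 18, such as 7SK, Y RNA and U6 genes, passed in either direction, with a median of 0.05. The snAR windows are numbered copies with log2 fold changes from -2.25 to -1.55. They can share reads and may not be separate observations. The class of 5S rRNA windows had 0 calls among 46 tested and a median of 0.28, and an unadjusted p under 0.05 picked 0 lower and 2 higher windows. Among the 18 other symbols the same threshold picked 0 in each direction.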

How the data were processed

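Small RNA was sequenced in 6 libraries, 3 per arm. The first file holds, as deposited by the authors, raw read counts of 53603 windows, each 400 bp long, per the file headers. The second is the authors' deposited comparison of the arms. Per the file headers it gives log2 fold changes and mean log2 CPM values, an F score, and p-values with their adjusted form. The submitters' processing notes name Trim Galore, Bowtie2, bedtools and edgeR and the builds GRCh38 and hg38, with no roles or versions. The handling of reads with several positions and the use of strand are not given in the sources used here, so copies of a gene and overlapping or antisense genes cannot be separated.

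The counts were reduced by filterByExpr with default settings, scaled with TMM factors and fitted with edgeR 4.0.16 in R 4.3.3 (quasi-likelihood test, all 6 libraries, arm as the only term). Benjamini-Hochberg adjustment ran over the 1064 windows tested, with a threshold of 0.05. CPM values use the TMM factors, and the standard error is the size of the log2 fold change over the square root of F. Windows were given tRNA gene names by position from the RefSeq GRCh38.p14 table. On simulated counts with 200 of 1064 windows changed by 2 on the log2 scale, 98.6% of the changed windows were recovered and 3.41% of the calls were false. Every tested member changed by less than that, and the simulation gave all windows the same dispersion. These rates therefore do not carry over to the members. Figures were drawn with matplotlib 3.10.9.

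Members named with full values were those called, the 10 with the highest mean CPM, and the 5 lowest and 5 highest log2 fold changes among members with a mean of at least 20 counts. Members with identical counts in all libraries counted as 1. Further members were named after their values were seen, to describe families. The members, lists and tests were chosen with earlier results of these data known. Alternatives were RLE, library size and upper quartile scaling, DESeq2 1.42.0, a replicate block, identical rows collapsed, no filter, a filter at a mean of 20 counts, and leaving out each library.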

Additional observations from a re-analysis of the deposited data

How the results depend on the processing

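The number of members that fell was 8 in the reported fit and 0 rose in any alternative. RLE factors, a filter at a mean of 20 counts and identical rows collapsed gave 8 as well, and library size alone gave 11. Upper quartile factors gave 4, DESeq2 gave 13 and no filter gave 18 of 96 tested. Leaving out a library gave from 0 to 17. Without La knockdown replicate 1 the count was 0, with 15 lower and 0 higher by unadjusted p (under 0.05), and the edgeR fit then called 0 of all windows. It was 2 without La knockdown replicate 2, 17 without La knockdown replicate 3, and 5, 3 and 7 without control replicates 1, 2 and 3. The cause of these moves was not tested. The 8 members kept their calls under RLE factors, library size alone, DESeq2, identical rows collapsed, no filter, a filter at a mean of 20 counts and without La knockdown replicate 3.

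Same-numbered libraries of the arms did not deviate together throughout (correlations 0.14, 0.23 and -0.46). With 3 libraries per arm these values cannot exclude a pairing. With a replicate block the fit called 16 members lower, and 88 of all 1064 windows.

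The median of the tested members, -0.49, was -0.17 under upper quartile factors, which shifted the median of all windows by 0.315. Relative to all windows it stayed between -0.437 and -0.425 under the TMM, RLE, library size and upper quartile scalings. A change of scaling moves all windows by nearly the same amount, so this closeness was fixed in advance. With no filter the median of the tested members was -0.73, and -0.769 relative to all windows. It ran from -0.73 to -0.36 over the fits that left out a library. Both shares of counts kept their direction under their alternatives. Leaving out a library, or members with a mean under 20 counts, moved their differences by less than the spread between replicates. With rRNA windows left out of the total, the difference was -0.341 percentage points, the control SD was 0.504 and the arms overlapped. That share has another total, so its difference cannot be compared in size with -0.448.

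Of 308 values of named members under the alternatives, 261 kept their direction and side of the threshold, 27 lost the call, 5 gained it and 15 changed sign. All 5 gains were of TRI-AAT2-1, under library size alone, DESeq2, no filter, the replicate block (adjusted p = 0.000856 by edgeR) and without La knockdown replicate 3. Sign changes were those of windows with values near 0. TRD-GTC2-6 had 0.062 under RLE factors and DESeq2, 0.31 under upper quartile factors, and from -0.16 to 0.077 over the fits that left out a library (0.072 without control replicate 3, 0.077 without La knockdown replicate 2). TRD-GTC2-7 had -0.063 under library size alone, -0.22 with no filter, and from -0.14 to 0.11 with a library left out (-0.017 and -0.015 without control replicates 1 and 2, -0.14 without La knockdown replicate 1). TRD-GTC3-1 had -0.049 under library size alone, -0.21 with no filter, and from -0.11 to 0.12 with a library left out (-0.11 and -0.0028 without La knockdown replicates 1 and 3). TRG-GCC2-3 had 0.15 under upper quartile factors.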
